A study of Homo sapiens with 5 samples.

Results

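The WAVE regulatory complex was described here through 8 genes taken by symbol from the 27189 genes listed in each library, namely WASF1, WASF2, WASF3, CYFIP1, CYFIP2, NCKAP1, ABI1 and ABI2. All 8 were listed in every library, and all 8 passed the filter of at least 1 TPM (transcripts per 1000000, a level corrected for transcript length and library total) in at least 1 library. They were chosen by name, as subunits of the complex, with earlier results of these data known. The cells were HT1080, an established human fibrosarcoma line, embedded in type I collagen at 2 mg per ml for 24 h and profiled by RNA-seq with 1 library per condition. LD cells were untreated at 10 cells per cubic mm. At that same density, recombinant IL-8 was added for the library named IL-8, recombinant IL-6 for the library named IL-6, and both in a ratio of 5 to 2 for RM. HD cells were untreated at 50 cells per cubic mm. All groups share the same line at passages 15 to 18, so they stand for 1 cell line only.

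The complex couples the small GTPase Rac to branched actin. A WASF protein (also called WAVE) carries the C-terminal region that activates the Arp2/3 complex, and the other subunits hold that region inactive until Rac binds. CYFIP binds Rac and pairs with NCKAP1, while ABI and the small subunit BRK1 bind the WASF protein itself. Loss of this complex is known to impair lamellipodia, the sheet-like protrusions of migrating cells. Paralogs can replace one another at the WASF, CYFIP and ABI positions, so which paralog is transcribed is a separate question from how much of the complex is made. The study asked about WASF3 and Arp2/3 under these cytokines, and here the 3 WASF genes were set beside their partners in the complex.

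With no replicate, no difference below could be set against a spread between cultures, and no p-value is given. Levels are TPM rescaled to 1000000 per library, with an exact 95% Poisson interval carried over from the read count. Differences are of log2(TPM + 1), a scale on which differences of weakly expressed genes come out too small, and 1 log2 unit was counted as a change. Ratios of reads are per 1000000 reads outside the ribosomal entry RNA5-8S5, with an exact 95% binomial interval. These intervals cover read sampling only, and the cDNA had been amplified before sequencing. In bulk RNA, fewer cells with a transcript and less transcript per cell cannot be told apart.

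Reads outside RNA5-8S5 numbered from 1100967 to 1645539 in the 4 libraries at low density and 449661 in HD, so that 3 reads amounted to between 1.82 and 2.72 per 1000000 at low density and 6.67 per 1000000 in HD. The 8 genes together had 816 reads in LD, 450 in IL-8, 577 in IL-6, 414 in RM and 98 in HD. HD also differed in kind. Of 386 olfactory receptor genes, which encode odorant receptors of the nasal epithelium, 240 had a read in HD and between 14 and 37 had one in each other library. Their summed level was 6095 TPM in HD against 16.2 to 77.4 TPM elsewhere. The 5 listed mesenchymal markers VIM, CD44, FN1, MMP14 and SPARC summed to between 2473 and 4454 TPM at low density and to 592 TPM in HD. PTPRC, a surface phosphatase of blood cells, had 36 reads in HD and between 0 and 2 in the other libraries. The epithelial markers EPCAM and CDH1 had no read in LD or IL-6, 4 and 6 reads in IL-8 and RM, and 37 in HD, where the sum was 37.7 TPM. What these reads contribute to the HD values below was not tested.

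WASF2, the WASF gene expressed in most tissues, held the highest level of the 8 in all 4 libraries at low density. Its level was 43.4 TPM in LD, 30.6 in IL-8, 40.0 in IL-6, 19.3 in RM and 11.5 in HD, on 338, 174, 221, 145 and 16 reads. LD and IL-6 were highest, RM was the lowest of the 4 libraries at low density, and the intervals of LD (38.9 to 48.3 TPM) and RM (16.3 to 22.8 TPM) did not overlap. The difference of RM from LD was -1.13 log2 units, with a read ratio of 0.492 (0.402 to 0.600). In HD it was lower than in LD by a read ratio of 0.173 (0.0979 to 0.285), with a difference of -1.83 log2 units.

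WASF1 and WASF3, which are best known from the nervous system, were both low. WASF1 had 3.37 TPM in LD, 4.84 in IL-8, 2.92 in IL-6, 0.501 in RM and 2.85 in HD, on 15, 13, 9, 2 and 2 reads. RM stood below the other libraries at low density, with a difference of -1.54 log2 units from LD and a read ratio of 0.153 (0.0170 to 0.658). WASF3 had 3.08 TPM in LD, 0.787 in IL-8, 0.430 in IL-6, 2.28 in RM and 2.61 in HD, on 21, 4, 2, 15 and 4 reads. It was low in both single-cytokine libraries and close to LD in RM and HD, and its HD interval (0.711 to 6.68 TPM) contained the point values of LD, IL-8 and RM. RM exceeded IL-6 by 1.197 log2 units, a read ratio of 5.76 (1.34 to 51.9), and IL-8 by 0.88, a read ratio of 2.93 (0.933 to 12.1).

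**Figure D1:**
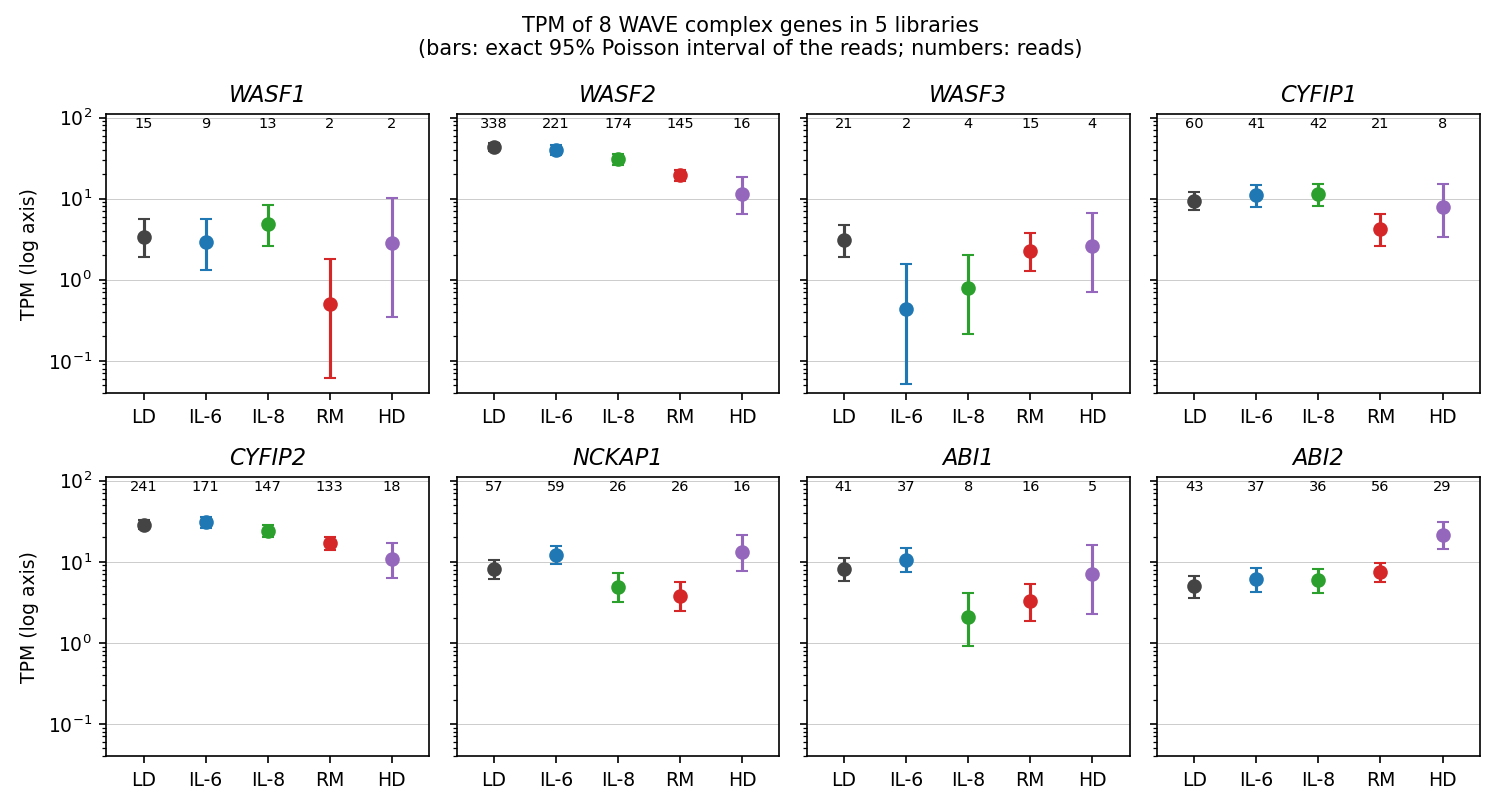
TPM (log axis) of each of the 8 WAVE complex genes in each of the 5 libraries with bars for the exact 95% Poisson interval of the reads and the read number above. WASF2 is highest in LD at 43.4 TPM and lowest in HD at 11.5 TPM, WASF3 is lowest in IL-6 at 0.430 TPM, and ABI2 is highest in HD at 21.4 TPM.

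The balance within a family does not depend on how libraries are scaled. WASF2 made up 87.1% of the summed TPM of the 3 WASF genes in LD, 84.4% in IL-8, 92.3% in IL-6, 87.4% in RM and 67.7% in HD. By point values WASF2 was thus the main WASF transcript in every library. In HD the family had only 22 reads. There the TPM interval of WASF2 (6.55 to 18.6) overlapped those of WASF1 (0.345 to 10.3) and WASF3 (0.711 to 6.68). The WASF3 share was 6.17% of TPM in LD, 2.17% in IL-8, 0.992% in IL-6, 10.3% in RM and 15.4% in HD. On reads the share was 5.61% in LD (exact binomial interval 3.51 to 8.46%) and 9.26% in RM (5.28 to 14.8%), so these 2 libraries were not told apart. The odds of a WASF read falling on WASF3 were 1.71 times those of LD in RM (0.798 to 3.60) and 3.72 times in HD (0.840 to 12.8). Against the single cytokines the RM odds were higher, by 11.7 times over IL-6 (2.65 to 106.7) and 4.75 times over IL-8 (1.47 to 20.1). Compared with LD, the IL-6 odds were 0.146 (0.0165 to 0.609) and the IL-8 odds 0.360 (0.0886 to 1.09).

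The WASF genes share no stretch as long as a read. Of the distinct 50-base stretches in GENCODE 29 transcripts, the read length here, none was common to any pair of WASF1, WASF2 and WASF3, nor of CYFIP1 and CYFIP2, nor of ABI1 and ABI2. WASF2 shared 7.79% of its stretches with the pseudogene WASF4P. WASF3 shared 37.4% of them with AL159978.1, an antisense gene on the opposite strand with no value used here. Tagmentation does not mark strand, so within these stretches reads of WASF3 and of the antisense gene cannot be told apart. In GENCODE 29 on GRCh38, WASF1 lies on chromosome 6 from 110099819 to 110180004 (minus strand), WASF2 on chromosome 1 from 27404226 to 27490158 (minus strand) and WASF3 on chromosome 13 from 26557703 to 26688948 (plus strand). The submitters' processing notes name GRCh37, and these positions were matched by symbol only.

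CYFIP1 and CYFIP2 encode the subunit that binds Rac. CYFIP2 had 28.5 TPM in LD, 24.1 in IL-8, 30.7 in IL-6, 16.8 in RM and 10.7 in HD, on 241, 147, 171, 133 and 18 reads. It ranked second of the 8 at low density, and in IL-6, IL-8 and RM its interval overlapped that of WASF2. The read ratio to LD was 0.633 in RM (0.508 to 0.786) and 0.273 in HD (0.159 to 0.441), and only the HD difference of -1.33 log2 units passed 1 unit. CYFIP1 had 9.45 TPM in LD, 11.3 in IL-8, 10.9 in IL-6, 4.21 in RM and 7.78 in HD, on 60, 42, 41, 21 and 8 reads. RM was the low library, at -1.005 log2 units from LD with a read ratio of 0.402 (0.232 to 0.670), and LD, IL-6 and IL-8 lay within one another's intervals. The CYFIP2 share of CYFIP reads stayed between 69.2% in HD (48.2 to 85.7%) and 86.4% in RM (79.9 to 91.4%), and none of the 6 odds ratios between libraries had an interval clear of 1. NIPA2, a magnesium transporter gene on the opposite strand, covers 12.8% of the CYFIP1 exon bases, and it had 62 reads in LD, 25 in IL-8, 30 in IL-6, 16 in RM and 6 in HD. What it contributes to the CYFIP1 counts was not tested.

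NCKAP1 encodes the scaffold that CYFIP pairs with. Its level was 8.07 TPM in LD, 4.95 in IL-8, 12.2 in IL-6, 3.80 in RM and 13.3 in HD, on 57, 26, 59, 26 and 16 reads. IL-6 stood above the other libraries at low density, with a read ratio to LD of 1.55 (1.06 to 2.27), although the difference of 0.54 log2 units was below 1. RM was lower than LD by a read ratio of 0.523 (0.316 to 0.846), with a difference of -0.92, and lower than IL-6 by a ratio of 0.338 (0.205 to 0.545), with a difference of -1.46. In HD the TPM difference from LD was 0.66 while the read ratio was 1.03 (0.551 to 1.81), and its sign turned with TMM factors (-0.48).

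ABI1 and ABI2, adaptors first found as partners of the Abl kinase, fill the third exchangeable position, and the balance between them differed between libraries. ABI1 had 8.15 TPM in LD, 2.11 in IL-8, 10.6 in IL-6, 3.29 in RM and 6.97 in HD, on 41, 8, 37, 16 and 5 reads. LD and IL-6 were high and IL-8 and RM low, with read ratios to LD of 0.287 in IL-8 (0.116 to 0.619) and 0.448 in RM (0.235 to 0.815). The corresponding differences were -1.56 and -1.09 log2 units. ABI2 had 4.98 TPM in LD, 5.92 in IL-8, 6.05 in IL-6, 7.50 in RM and 21.4 in HD, on 43, 36, 37, 56 and 29 reads. The 4 libraries at low density overlapped, and HD stood above them at a difference of 1.90 log2 units from LD and a read ratio of 2.47 (1.49 to 4.05). That difference was close to the median of 1.86 over all genes tested, and with TMM factors it was 0.65.

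ABI1 took 48.8% of the ABI reads in LD (37.7 to 60.0%) and 50.0% in IL-6 (38.1 to 61.9%). Its share was 18.2% for IL-8 (8.19 to 32.7%), 22.2% for RM (13.3 to 33.6%) and 14.7% for HD (4.95 to 31.1%). The intervals of the first 2 libraries did not overlap those of the last 3. In TPM the ABI1 share was 62.1% and 63.6% in the first 2 libraries and 26.2%, 30.5% and 24.6% in the last 3. By TPM point values ABI1 was thus the higher in LD and IL-6 and ABI2 in the other libraries. The TPM intervals of the pair overlapped in every library except RM (1.88 to 5.34 for ABI1, 5.67 to 9.74 for ABI2). On reads the pair was level in LD and IL-6. Relative to LD the odds of an ABI read falling on ABI1 were 0.183 in HD (0.0505 to 0.542), 0.236 in IL-8 (0.0843 to 0.594) and 0.302 in RM (0.139 to 0.635), against 1.05 in IL-6 (0.535 to 2.05). RM and IL-8 were not told apart, at 1.28 (0.460 to 3.84).

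**Figure D2:**
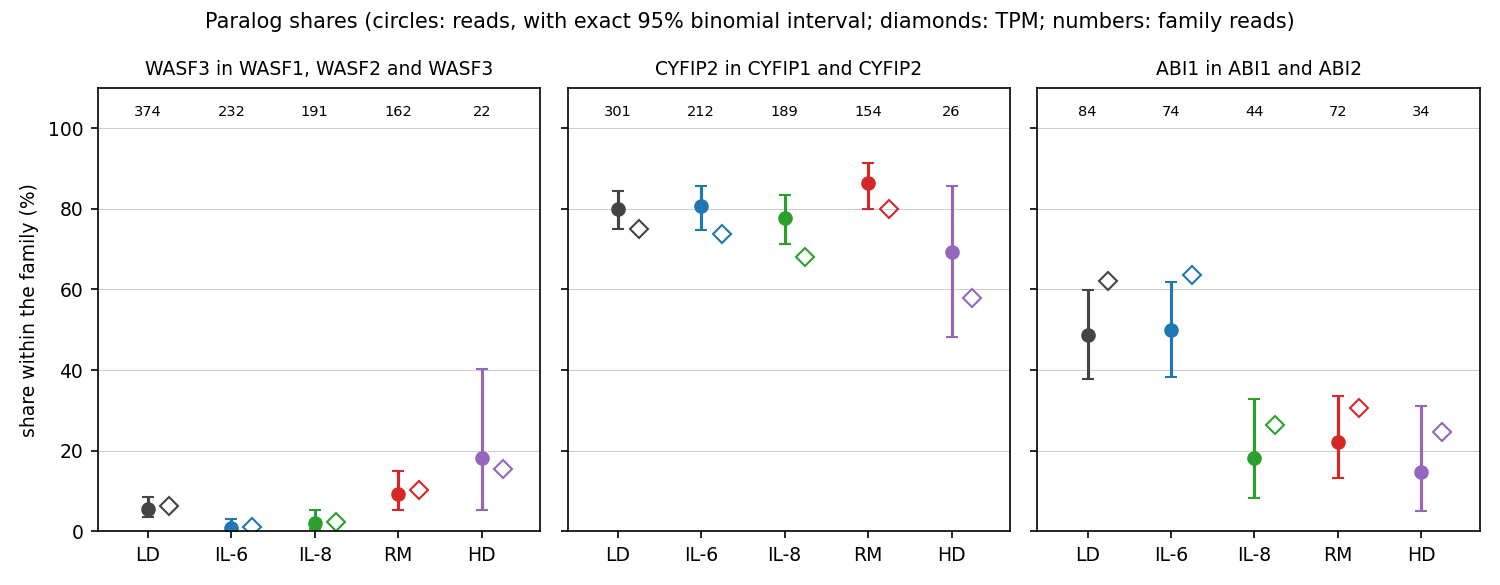
Share (%) of WASF3 among the WASF genes, of CYFIP2 among the CYFIP genes and of ABI1 among the ABI genes in each library, as reads (circles, with the exact 95% binomial interval) and as TPM (diamonds), with the family's reads above. The ABI1 read share is 48.8% and 50.0% in LD and IL-6 and between 14.7% and 22.2% in IL-8, RM and HD, while the CYFIP2 intervals overlap throughout.

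Both ABI genes overlap a neighbour on the opposite strand. RAPH1, which encodes lamellipodin, a protein that binds this complex at the membrane, covers 38.02% of the ABI2 exon bases in GENCODE 29. It had 28 reads in LD, 15 in IL-8, 29 in IL-6, 52 in RM and 9 in HD. PDSS1, an enzyme gene of coenzyme Q synthesis, covers 4.88% of the ABI1 exon bases and had 26, 2, 18, 6 and 0 reads in the same order. PDSS1 was thus high and low in the same libraries at low density as ABI1. What these neighbours contribute to the ABI counts was not tested.

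The promoters of WASF1 and WASF3, the weakly transcribed WASF genes, and of ABI1 and ABI2, the pair whose balance differed, are shown as the 250 bases before the start in RefSeq on GRCh38.p14, a table in which 7 of the 8 members were matched, all but WASF2. For WASF3, the first of its 2 windows is shown. Capitals mark matches on either strand to TTCNNNGAA (the palindromic core bound by STAT factors, which act downstream of the IL-6 receptor), GGGCGG (GC box), CCAAT and TATAAA. No match was shared by 2 motifs.
WASF1 promoter, chr6:110179671-110179920, minus strand: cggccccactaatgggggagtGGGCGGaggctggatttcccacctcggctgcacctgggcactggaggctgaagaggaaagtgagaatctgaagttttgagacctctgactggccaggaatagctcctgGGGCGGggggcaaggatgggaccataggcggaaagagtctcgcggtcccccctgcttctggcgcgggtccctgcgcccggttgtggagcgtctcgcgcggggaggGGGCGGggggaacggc
WASF3 promoter, chr13:26557433-26557682, plus strand: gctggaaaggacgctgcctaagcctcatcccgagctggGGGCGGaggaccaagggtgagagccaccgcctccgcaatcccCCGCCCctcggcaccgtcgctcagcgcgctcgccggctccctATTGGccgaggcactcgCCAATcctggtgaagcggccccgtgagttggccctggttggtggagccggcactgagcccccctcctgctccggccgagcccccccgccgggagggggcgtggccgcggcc
ABI1 promoter, chr10:26860959-26861208, minus strand: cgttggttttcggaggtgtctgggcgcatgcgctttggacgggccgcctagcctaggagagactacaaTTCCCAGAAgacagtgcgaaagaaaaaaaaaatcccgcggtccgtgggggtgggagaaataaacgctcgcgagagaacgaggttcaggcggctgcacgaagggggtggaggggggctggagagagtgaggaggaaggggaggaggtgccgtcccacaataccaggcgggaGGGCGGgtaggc
ABI2 promoter, chr2:203328144-203328393, plus strand: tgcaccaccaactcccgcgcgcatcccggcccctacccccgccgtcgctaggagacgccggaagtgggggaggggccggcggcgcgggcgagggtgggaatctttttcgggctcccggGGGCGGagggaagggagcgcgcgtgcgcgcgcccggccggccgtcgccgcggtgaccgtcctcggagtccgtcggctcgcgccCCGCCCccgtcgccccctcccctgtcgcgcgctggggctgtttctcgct
TTCNNNGAA was found once in the ABI1 window, 182 bases before the start, and not in the windows of WASF1, WASF3 and ABI2. It was present in 6.78% of 27305 promoters of the same length. GGGCGG occurred 3 times for WASF1, 2 times for WASF3, 1 time for ABI1 and 2 times for ABI2, against 42.3% of all promoters with at least 1 match. CCAAT occurred 2 times for WASF3 and not in the other 3 windows, with 33.0% of promoters holding it, and TATAAA, held by 11.1%, occurred in none of the 4. GC content was 66.8% for WASF1, 74.0% for WASF3, 61.2% for ABI1 and 78.0% for ABI2, where the median promoter had 58.0%. A match is a run of letters and does not show binding.

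In RM against LD, 4 of the 8 genes were lower by at least 1 log2 unit (WASF1, WASF2, CYFIP1 and ABI1) and none was higher, where 20.4% of all genes tested were lower, 6.44% higher and 26.8% either. Their median difference was -0.96, against 0.00 over all genes. Among genes with at least 10 reads in both libraries, 3 of 7 members were lower, against 25.4% of 7065 genes (8.95% were higher, 34.4% either), and the medians were -0.92 and -0.42. The read ratio was clear of 1 and below it in 6 of the 8, the exceptions being WASF3 at 0.819 (0.393 to 1.67) and ABI2 at 1.49 (0.986 to 2.28). The number of calls depended on the scaling. With median-ratio factors 1 gene was lower (WASF1, -1.21) and 1 higher (ABI2, 1.16), where 11.4% of all genes were lower and 12.9% higher. With TMM factors 1 was lower (WASF1, -1.17), where 9.26% of all genes were lower and 8.17% higher, and WASF3 turned from -0.31 to 0.11. Under both of these scalings the share of members called was near the background.

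**Figure D3:**
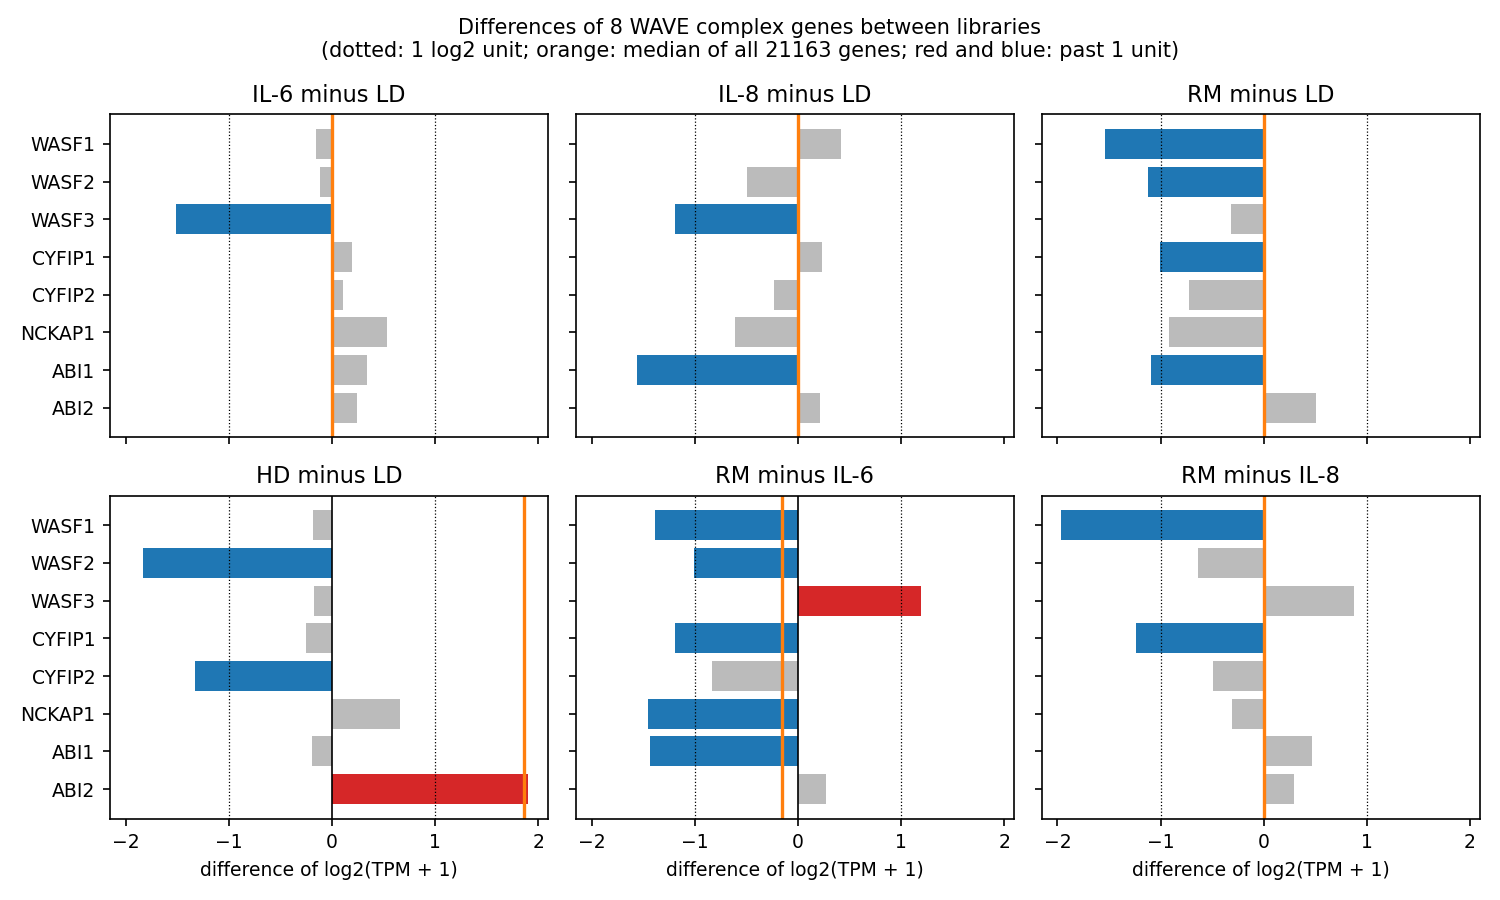
Difference of log2(TPM + 1) for the 8 genes in 6 comparisons of libraries, 1 library each, with dotted lines at 1 log2 unit, an orange line at the median of all genes tested, and colour for differences past 1 unit. In RM minus LD 4 bars pass -1, whereas in HD minus LD the median of all genes lies at 1.86 and the median of the members at -0.19.

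In IL-6 against LD, 1 of the 8 genes was lower (WASF3, -1.51) and none higher, where 7.47% of all genes were lower, 9.84% higher and 17.3% either. The other 7 lay between -0.16 (WASF1) and 0.54 (NCKAP1). Of the 6 members with at least 10 reads in both libraries none differed by 1 log2 unit, where 13.3% of such genes did (7.25% higher, 6.02% lower). In IL-8 against LD, 2 of 8 were lower (WASF3, -1.19, and ABI1, -1.56), where 16.4% of all genes were lower, 7.99% higher and 24.4% either. Both had under 10 reads in IL-8, and of the 6 members with at least 10 reads in both libraries none differed by 1 log2 unit, where 27.0% of such genes did (9.44% higher, 17.5% lower). Set against IL-6, RM was lower in 5 of 8 (WASF1, WASF2, CYFIP1, NCKAP1 and ABI1) and higher in 1 (WASF3), where 22.7% of all genes were lower, 6.34% higher and 29.0% either. Of the 6 members with at least 10 reads in both, 4 were lower, where 26.4% of such genes were lower, 8.75% higher and 35.1% either. With median-ratio factors 1 member was lower than in IL-6 (WASF1, -1.03) and 1 higher (WASF3, 1.68), where 12.6% of all genes were lower and 12.5% higher. With TMM factors none was lower and 1 was higher (WASF3, 1.68), where 9.20% of all genes were lower and 8.51% higher. Set against IL-8, RM was lower in 2 of 8 (WASF1, -1.96, and CYFIP1, -1.24), where 14.9% of all genes were lower, 9.87% higher and 24.8% either. Of the 5 members with at least 10 reads in both, 1 was lower, where 18.7% of such genes were lower, 12.3% higher and 31.1% either. WASF3, at 0.88 on TPM, was higher in RM than in IL-8 by more than 1 log2 unit under the other 3 scalings, at 1.17 with median-ratio factors, 1.33 in reads per 1000000 and 1.16 with TMM factors, and it was 0.33 with a pseudocount of 5. The comparisons with LD share that library, and those of RM share RM.

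In HD against LD, 2 of the 8 were lower (WASF2 and CYFIP2) and 1 higher (ABI2), where 17.9% of all genes were lower, 61.9% higher and 79.7% either. The median of the members was -0.19, against 1.86 over all genes tested. The 4 members with at least 10 reads in both libraries, WASF2, CYFIP2, NCKAP1 and ABI2, had 1 gene higher, 2 lower and a median of -0.34, against 0.83 over 4774 genes, of which 47.3% were higher, 21.9% lower and 69.2% either. On read ratios, WASF2 and CYFIP2 were below 1, ABI2 above it, and the other 5 spanned 1. WASF2 and CYFIP2 stayed lower by at least 1 log2 unit under each scaling, at -2.92 and -2.29 with TMM factors. CYFIP1 (-1.35) and ABI1 (-1.34) also passed -1 with TMM factors, where 24.6% of all genes were lower and 38.7% higher. With reads outside RNA5-8S5 drawn down once to the HD total, the differences were -0.90 for WASF2 and -0.54 for CYFIP2, both short of 1 unit. RNA5-8S5 kept its full count in that run, which lowered the rescaled TPM of the other genes in LD but not in HD. Depth and this rescaling cannot be told apart in those values. The order of the genes also differed in HD, where ABI2 and NCKAP1 led with WASF2 next, but no pair of neighbours in that order had intervals that did not overlap. In each library at low density 1 or 2 of the 7 neighbouring pairs had intervals clear of each other, all of them among the 3 highest genes.

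Summed by position in the complex, the WASF genes reached 49.9 TPM in LD, 36.2 in IL-8, 43.3 in IL-6, 22.1 in RM and 16.9 in HD. The CYFIP genes summed to 37.99, 35.4, 41.6, 21.0 and 18.5 TPM in the same order, and the ABI genes to 13.1, 8.02, 16.6, 10.8 and 28.3 TPM. In reads per 1000000 outside RNA5-8S5, the 8 genes together stood highest in IL-6 at 524.1 (482.2 to 568.6) and LD at 495.9 (462.4 to 531.1), followed by IL-8 at 401.6 (365.3 to 440.4), RM at 288.6 (261.5 to 317.8) and HD at 217.9 (176.9 to 265.6). In TPM the order of the last 2 was the opposite, with sums of 57.8 in RM and 77.1 in HD. The sums were not taken with median-ratio or TMM factors, and the order of libraries can depend on the scaling. From TPM to median-ratio factors, the median difference of the members from LD moved from -0.36 to 0.07 in IL-8. In RM it moved from -0.96 to -0.34. The WASF and CYFIP sums were lowest in RM and HD, whereas the ABI sum was lowest in IL-8 and highest in HD.

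BRK1, the small subunit outside the 8, was also lower in RM than in LD. It had 74.7 TPM in LD, 69.2 in IL-8, 88.2 in IL-6, 12.6 in RM and 23.4 in HD, on 116, 81, 95, 19 and 7 reads. RM and HD lay below the other 3 libraries, and their intervals (7.61 to 19.7 TPM and 9.40 to 48.2 TPM) did not overlap that of LD (61.7 to 89.6 TPM). RM was lower than LD by a difference of -2.47 log2 units and a read ratio of 0.188 (0.109 to 0.307), and with TMM and median-ratio factors the difference was -1.78 in both. NCKAP1L and ABI3, the subunits used mainly in blood cells, had no read in LD, IL-8 or RM. NCKAP1L had 5 reads in HD and none in IL-6, and ABI3 had 1 read in HD and 2 in IL-6.

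**Figure D4:**
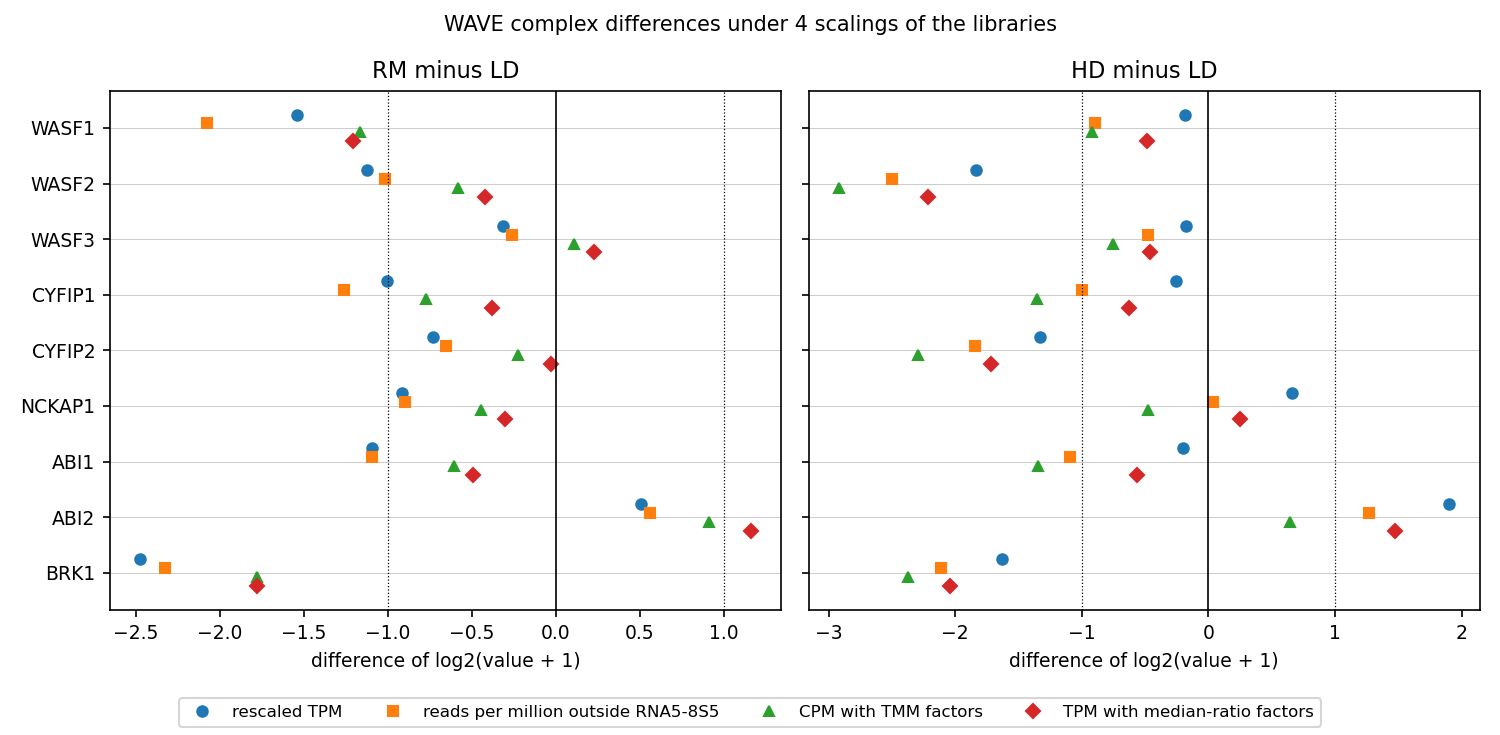
Differences of log2(value + 1) for the 8 genes and BRK1 in RM minus LD and HD minus LD under 4 scalings of the libraries, 1 library each. BRK1 is at or below -1.78 in RM under all 4, WASF2 moves from -1.13 to -0.42 with median-ratio factors, and WASF3 changes side of 0 in RM.

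Upstream of the complex, 13 genes for Rac GTPases and their exchange factors were all measured. In RM against LD 3 were higher, 1 lower and 9 within 1 log2 unit, with a median of 0.00. Over all genes tested 6.44% were higher and 20.4% lower with a median of 0.00. Among genes with at least 10 reads in both libraries these were 8.95%, 25.4% and -0.42. PREX1, a Rac exchange factor downstream of G-protein-coupled receptors, had 2.93 TPM in LD, 4.35 in IL-8, 5.39 in IL-6, 35.4 in RM and 18.6 in HD, on 21, 23, 26, 131 and 18 reads. RM was far above the other libraries at low density, with a read ratio to LD of 7.16 (4.49 to 11.9) and a difference of 3.21. TIAM1, another Rac exchange factor, had 1.56, 3.79, 3.19, 22.5 and 28.4 TPM in the same order, on 10, 27, 18, 104 and 19 reads, and was high in RM and HD. ELMO1, a partner of the DOCK exchange factors, was lower in RM, on 1 read against 17. In HD against LD, 6 of the 13 were higher and 4 lower with a median of 0.84, where 61.9% of all genes were higher and 17.9% lower with a median of 1.86. Among genes with at least 10 reads in both libraries, 47.3% were higher and 21.9% lower with a median of 0.83. The list's share of higher genes and its median were near that background. TIAM1 had the largest rise (3.52) and RHOG, a Rac-related GTPase, the largest fall (-3.55). RAC1 itself had 848.3 TPM in LD and between 623.9 and 872.3 in IL-6, IL-8 and RM, and 74.9 TPM on 42 reads in HD.

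Of 14 partners and inhibitors of the complex, 13 were measured under either symbol, and ARPIN was not analysed here. In RM against LD, 2 were higher and 4 lower with a median of -0.47. Over all genes tested 6.44% were higher and 20.4% lower with a median of 0.00. Among genes with at least 10 reads in both libraries these were 8.95%, 25.4% and -0.42, nearer to the list. NHSL1, which binds the complex at the leading edge, had the largest rise (2.68), on 2 reads in LD, 6 in IL-8, 13 in IL-6, 66 in RM and 11 in HD. EVL, an actin-elongating protein of the Ena/VASP family, had the largest fall (-2.23), on 27 reads in LD and 4 in RM. In HD against LD 5 were higher and 4 lower with a median of 0.36. Over all genes tested 61.9% were higher and 17.9% lower with a median of 1.86. Among genes with at least 10 reads in both libraries these were 47.3%, 21.9% and 0.83. SRGAP3, a Rac GTPase-activating protein that binds WASF1, had the largest rise (5.07, on 1 and 48 reads) and ARF1, a GTPase of membrane traffic, the largest fall (-2.98, on 1363 and 29 reads).

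Of 7 other genes of the WASP family and its WIP partners, none was higher and 2 were lower in RM against LD with a median of -0.56, a share near the 20.4% of all genes that were lower. WASL, which encodes N-WASP, had 14.4 TPM in LD, 16.5 in IL-8, 11.6 in IL-6, 16.1 in RM and 10.4 in HD. All 5 TPM intervals overlapped. WASL in RM stood at a read ratio to LD of 1.24 (0.918 to 1.67), beside 0.492 for WASF2. Against IL-6 the RM ratio of WASL was 1.49 (1.05 to 2.14). In HD its read ratio to LD was 0.447 (0.216 to 0.839), on 11 and 90 reads. That HD difference was -0.44 log2 units on TPM, -1.53 with TMM factors and 0.70 with drawn-down reads. WAS, the blood cell member, had the largest fall, on 18 reads in LD and 0 in RM, where a count of 0 allows up to 3 reads. It was low in IL-8 and IL-6 too, on 3 and 0 reads. In HD it had 2 reads, at 4.73 TPM beside 7.22 TPM in LD. That read ratio was 0.407 (0.0458 to 1.70), so HD was not told apart from LD. In HD 4 of the 7 were higher and none lower, near the 61.9% of all genes that were higher. The largest rise was in WHAMM, which promotes actin branching on membranes (3.95, on 12 reads in LD and 46 in HD).

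The 10 Arp2/3 complex genes encode the target of the WASF proteins. In RM against LD, 1 was higher and 3 lower with a median of -0.61. Over all genes tested 6.44% were higher and 20.4% lower with a median of 0.00. Among genes with at least 10 reads in both libraries these were 8.95%, 25.4% and -0.42, nearer to the list. The largest rise was in ACTR3B (1.54, on 19 reads in LD and 57 in RM) and the largest fall in ARPC3 (-1.82, on 80 and 21 reads). Against LD, ACTR3B was also higher in IL-8 (1.40, on 39 reads) and IL-6 (1.11, on 30 reads). ARPC3 had 27.3 TPM on 23 reads in IL-8, beside 19.2 TPM in RM, and 73.3 TPM on 57 reads in IL-6. In HD against LD none was higher and 7 were lower with a median of -1.73. Over all genes tested 61.9% were higher and 17.9% lower with a median of 1.86. Among genes with at least 10 reads in both libraries these were 47.3%, 21.9% and 0.83. ARPC5 had the largest fall (-4.17, on 154 reads and 1 read).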

How the data were processed

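RNA from HT1080 cells in collagen was selected with oligo-dT, amplified as cDNA with phi29 polymerase and tagmented, and 5 libraries were read as 50-base single ends. The authors aligned with Bowtie2 2.3.1 and quantified with RSEM 1.2.25 (versions and GRCh37 from the submitters' processing notes). The annotation and settings are not given in the sources used here. The authors deposited a whole-number read count per gene, not normalized, and a TPM value per gene, corrected for length and library. A cell-free collagen control named in the design text was not analysed here.

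Library totals ran from 926376 to 7118545 reads, of which RNA5-8S5 took 51.5% to 79.6%. Deposited TPM summed to between 934821 and 978521 and was rescaled to 1000000. Comparisons used a pseudocount of 1 and a threshold of 1 log2 unit, over genes that reached 1 TPM in any library. With 1 library per condition no test between conditions could be made. Read ratios and paralog odds ratios carry exact 95% conditional intervals for sampling only.

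The members and lists were chosen with earlier results of these data known. Named genes were the 8 members, BRK1, ABI3, NCKAP1L, and for each further list the largest rise and fall in RM and HD against LD with at least 10 reads in the higher library; RAC1 and the RM values of TIAM1 were added after their values were seen. For each member with at least 10 reads in all 5 libraries, the 2 genes nearest in pattern were also named. Alternatives were pseudocounts of 0.1 and 5, median-ratio factors, reads per 1000000 outside RNA5-8S5, TMM factors from edgeR 4.0.16, reads drawn down to 449661 per library, a threshold of 2 log2 units, no filter, and at least 10 reads in both libraries. The same alternatives for BRK1 and the named list genes were added after seeing the data. The calculations were tested on simulated data. R 4.3.3, scipy 1.17.1, numpy 2.4.6, matplotlib 3.10.9, pandas 2.3.3 and Python 3.11.15 were used, with GENCODE 29 (GRCh38) for overlaps and RefSeq (GRCh38.p14) for promoters. The summed level of the blood cell marker list is not reported here.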

Additional observations from a re-analysis of the deposited data

How the results depend on the processing

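No paired analysis was possible because each condition has 1 library, and no library could be left out for the same reason. The counts of members past the threshold depended on the settings. With a pseudocount of 5 the count was 0 in RM, IL-8 and IL-6 against LD and 0 in RM against IL-8 and IL-6, in place of 4, 2, 1, 2 and 6. With a threshold of 2 log2 units it was 0 in all 6 comparisons. Median-ratio factors gave 1 in IL-8 against LD, 2 in RM against LD (1 higher, 1 lower) and 2 in RM against IL-6 (1 higher, 1 lower). TMM factors gave 1 in RM against LD (lower) and 1 in RM against IL-6 (higher). With reads drawn down once to the smallest library the count was 1 in IL-8 against LD, 1 in RM against LD and 1 in RM against IL-8. Among members with at least 10 reads in both libraries it was 0 in IL-6 against LD, 0 in IL-8 against LD and 1 in RM against IL-8. The other 32 of these 54 counts stayed within 1.5 times, although the genes behind a count could change. In HD against LD, TMM factors added CYFIP1 and ABI1 as lower and dropped ABI2 (0.65). Drawn-down reads dropped WASF2 and CYFIP2, with ABI2 (2.71) and NCKAP1 (1.48) higher. The median of the members in HD against LD was -1.13 with TMM factors and 0.38 with drawn-down reads.

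Of the family shares, 33 of 50 moved by less than the distance from the middle of the binomial interval to its limits. A move past that distance could still stay inside the interval, as for WASF2 and CYFIP2 in LD. As a share of reads, without correction for length, WASF1 was 4.01% in LD, 6.81% in IL-8 and 3.88% in IL-6, and WASF2 was 90.4% in LD, 91.1% in IL-8 and 95.3% in IL-6. CYFIP2 was 80.1% in LD, 77.8% in IL-8, 80.7% in IL-6 and 86.4% in RM, and ABI1 was 48.8% in LD and 50.0% in IL-6. With reads drawn down, WASF1 was 12.4% in LD and 11.1% in IL-6, WASF2 was 87.9% in IL-6, WASF3 was 3.47% in LD, and CYFIP2 was 71.6% in RM. No difference of at least 1 log2 unit with the main settings changed sign in any alternative run. In HD against LD, CYFIP1 (-1.35) and ABI1 (-1.34) passed -1 with TMM factors but were 0.34 and 0.42 with drawn-down reads. NCKAP1 was 1.48 with drawn-down reads and -0.48 with TMM factors. Several smaller differences changed sign, mostly with drawn-down reads, where the full RNA5-8S5 count also shifted the scale. Among them were WASF3 in RM against LD with median-ratio factors, TMM factors and drawn-down reads, and NCKAP1 in HD against LD with TMM factors. Depth and this shift cannot be told apart in the drawn-down values. In HD 4 of the 8 members had under 10 reads, which limits every HD value here.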

Other observations

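For the 4 members with at least 10 reads in all 5 libraries, the genes nearest in pattern were sought among 3596 others by the root mean square difference of log2(TPM + 1), each gene centred on its mean over the 5 libraries. WASF2 was nearest to CERCAM, a cell adhesion gene (0.065 log2 units), and TPM4, a tropomyosin (0.075), and CYFIP2 to PSMD1, a proteasome subunit (0.035), and STC1, a secreted glycoprotein (0.069). NCKAP1 was nearest to MAT2A, which makes S-adenosylmethionine (0.079), and METAP2, a methionine aminopeptidase (0.083), and ABI2 to GM2A (0.11) and DIP2B (0.12). The median distance over all candidates ran from 0.83 to 0.95 log2 units. Within the complex, WASF2 and CYFIP2 lay 0.17 log2 units apart, and CYFIP2 was the 28th nearest gene to WASF2 and WASF2 the 39th nearest to CYFIP2. NCKAP1 and ABI2 lay 0.68 apart, and both were between 0.85 and 1.34 from WASF2 and CYFIP2. These distances rest on 1 library per condition.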
